A study of Homo sapiens with 20 samples.

Results

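TRIM (tripartite motif) proteins form a large family of ubiquitin ligases, and the RNA levels of their genes were followed in human U937T cells after induction of the transcription factor EVI1. The members were all genes whose symbol in the annotation of the HG-U133 Plus 2.0 array is TRIM followed by digits, without TRIM22, pseudogenes and antisense genes, and each gene was represented by its single-symbol probe set with the highest mean over the 20 arrays. This gave 54 genes of the 19775 genes with such a probe set, of which 52 (all except TRIM6 and TRIM55) passed a filter on low intensities and were tested among 17860 genes. A further 11 TRIM symbols were represented only by probe sets shared between several symbols and were not counted as members, among them the interferon-inducible TRIM34.

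U937T is a derivative of the myeloid leukemia line U937 in which tetracycline (tet) keeps a transgene silent, and all cultures were maintained in tet before the experiment. Clones E10 and E14 carry an HA epitope-tagged human EVI1 cDNA (U937T_EVI1-HA) that is expressed upon removal of tet, clone P2 carries the empty vector (U937T_vec), and parental U937T cells carry neither. E10 and E14 were cultured in medium containing or lacking tet and harvested after 6, 12, 24 or 48 h (16 arrays), and P2 and U937T after 48 h (4 arrays), with 1 array per line, time point and condition. All media contained puromycin, and those of E10, E14 and P2 also hygromycin, both used for selection. The replicates were thus lines, each EVI1 line being a single clone, and p-values measure the spread between these cultures.

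Most TRIM proteins carry a RING finger, 1 or more B-boxes and a coiled-coil, followed by a C-terminal domain that selects the target. The RING finger recruits a ubiquitin-conjugating enzyme, so that the target is marked with ubiquitin. Many TRIM genes are induced by interferon and act against viruses or tune the sensing of foreign nucleic acid, whereas others are cofactors of chromatin, control cell growth, or are used in muscle, neurons or germ cells.

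The values are log2 intensities, and a change is the value without tet minus that with tet in the same line. The EVI1 clone response is the mean change of E10 and E14, the control line response is that of P2 and U937T, and the EVI1-specific response at 48 h is the former minus the latter. All tests were from limma, fitted on all 20 arrays with the line as a block, and a member is called higher or lower at a p below 0.05 after Benjamini-Hochberg adjustment over the 17860 genes. Intensities differ between probe sets for technical reasons, so a level is compared only between arrays and a ranking of genes by mean intensity is not one by abundance.

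The probe set of MECOM, the gene of EVI1, rose by 1.38 to 3.38 in every pair of E10 and E14 cultures, while its change was -0.99 in P2 and 0.05 in U937T. The median log2 intensities over the arrays were 4.97 (MPO) to 11.98 (LYZ) for 9 myeloid markers, 4.28 to 7.85 (CD79A) for 5 lymphoid markers, 4.63 to 6.76 (KLF1) for 3 erythroid markers and 2.95 to 5.34 for 6 epithelial and fibroblast markers. The difference between 3′ and 5′ control probe sets, a measure of RNA integrity, was 0.19 to 1.52 over the arrays. It was highest in the E14 cultures at 24 h (1.52 with and 1.40 without tet). The cultures of a pair lay furthest apart in E14 at 12 h (1.02 with and 0.46 without tet). Next came U937T at 48 h (1.06 and 0.74). The part of RNA integrity in the changes of these pairs was not tested. In bulk RNA, fewer cells of a type and less RNA per cell cannot be told apart.

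TRIM5, TRIM69 and TRIM14, which changed in the EVI1 clones and have a match to the core of the interferon-stimulated response element before their start, are shown with TRIM26, which has such matches but was not called, by the 250 bases before the RefSeq gene start (GRCh38.p14, 5′ to 3′ on the strand of the gene). Capitals mark bases that match GAAANNGAA on either strand. The windows lie at chr11:5685075-5685324 (TRIM5, minus strand), chr15:44736278-44736527 (TRIM69, plus strand), chr9:98119223-98119472 (TRIM14, minus strand) and chr6:30213407-30213656 (TRIM26, minus strand).
TRIM5: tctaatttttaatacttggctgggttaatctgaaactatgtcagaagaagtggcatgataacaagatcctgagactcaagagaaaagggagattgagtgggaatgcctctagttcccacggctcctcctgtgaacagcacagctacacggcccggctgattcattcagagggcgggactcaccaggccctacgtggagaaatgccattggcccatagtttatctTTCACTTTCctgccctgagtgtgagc
TRIM69: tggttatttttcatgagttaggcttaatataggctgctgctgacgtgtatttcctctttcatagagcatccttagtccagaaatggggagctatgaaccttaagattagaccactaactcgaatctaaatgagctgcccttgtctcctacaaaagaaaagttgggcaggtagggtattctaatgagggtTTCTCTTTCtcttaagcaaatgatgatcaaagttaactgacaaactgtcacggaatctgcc
TRIM14: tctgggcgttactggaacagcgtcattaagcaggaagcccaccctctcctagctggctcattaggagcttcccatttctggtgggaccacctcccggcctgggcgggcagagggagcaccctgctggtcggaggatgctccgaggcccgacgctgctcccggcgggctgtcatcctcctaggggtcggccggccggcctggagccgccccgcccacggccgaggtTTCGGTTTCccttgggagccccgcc
TRIM26: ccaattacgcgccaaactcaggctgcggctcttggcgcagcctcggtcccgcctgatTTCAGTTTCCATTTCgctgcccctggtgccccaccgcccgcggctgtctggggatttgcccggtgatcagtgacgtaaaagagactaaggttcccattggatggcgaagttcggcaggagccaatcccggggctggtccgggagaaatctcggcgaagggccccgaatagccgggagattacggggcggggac

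RefSeq windows of 300 bases (250 before and 50 after the start) were at hand for 43 of the 54 members. GAAANNGAA, searched on both strands, was found for 8 of these 43 (18.6%), and for 9.86% of all 27305 genes with a window. The others beside those shown were TRIM2, TRIM16, TRIM21 and TRIM44, the matches of TRIM21 beginning 17 bases after its start. After 48 h without tet, TRIM5, TRIM21 and TRIM69 rose and TRIM14 fell in the EVI1 clones, whereas TRIM2 (0.27), TRIM16 (0.27), TRIM26 (0.07) and TRIM44 (0.00) were not called. TTCNNNGAA, the core of the gamma-activated sequence to which STAT proteins bind, was found for 7 of the 43 members (16.3%) and for 9.38% of all genes. GACAAGATA, the start of a consensus bound by EVI1, was found for 0 members and 34 genes (0.125%). Both strands were read, and matches that overlap, within or between motifs, were kept. A match describes the letters of this window only.

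Few members moved early. Numbers of members at an unadjusted limma p below 0.05 are given here and below without the share of all genes. That share was not computed, so these numbers are not results about the family. At 6 h, limma called 0 of the 52 members and 0 of all genes, and 2 members had an unadjusted p below 0.05 (TRIM71 0.31 and TRIM63 -0.28). At 12 h it called 0 members, against 0.0168% of all genes higher and 0.0112% lower, and 4 members (TRIM36, TRIM42, TRIM5 and TRIM7) were higher at an unadjusted p below 0.05, by 0.29 to 0.37. At 24 h, 8 members were called higher (15.4%, against 7.97% of all genes) and 4 lower (7.69%, against 9.16% of all genes). At 48 h, 12 were higher (23.1%, against 16.0% of all genes) and 6 lower (11.5%, against 14.7% of all genes). The median change of the members at 48 h was -0.01 and that of all genes -0.04, and 4 members (TRIM5, TRIM8, TRIM9 and TRIM38) changed at least 2-fold, as did 6.13% of all genes.

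Tet withdrawal itself changed a few of these genes. In P2 and U937T, 3 members rose after 48 h (5.77%, against 5.41% of all genes) and 1 fell (1.92%, against 5.3% of all genes). These were TRIM5, TRIM8 and TRIM38 and, on the lower side, TRIM9, which are the 4 members that changed at least 2-fold in the EVI1 clones. In the EVI1-specific response 1 member, TRIM71, was called higher (1.92%, against 2.43% of all genes) and 0 lower (against 3.03% of all genes), while 12 members, 9 higher and 3 lower, had an unadjusted p below 0.05. The spread behind all p-values was estimated mainly from E10 and E14, which have most of the arrays, so that the spread of the control lines has little weight in the p-values of the control response. Without P2 the calls of the control response fell from 4 to 1 (TRIM8). Leaving out 1 EVI1 clone, which leaves 1 residual degree of freedom, reduced the 18 calls of the clones at 48 h to 5 (without E10) or 6 (without E14) and the 12 calls at 24 h to 0 or 1. Without the E14 arrays at 12 and 24 h, 4 calls were made at 24 h.

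**Figure D1:**
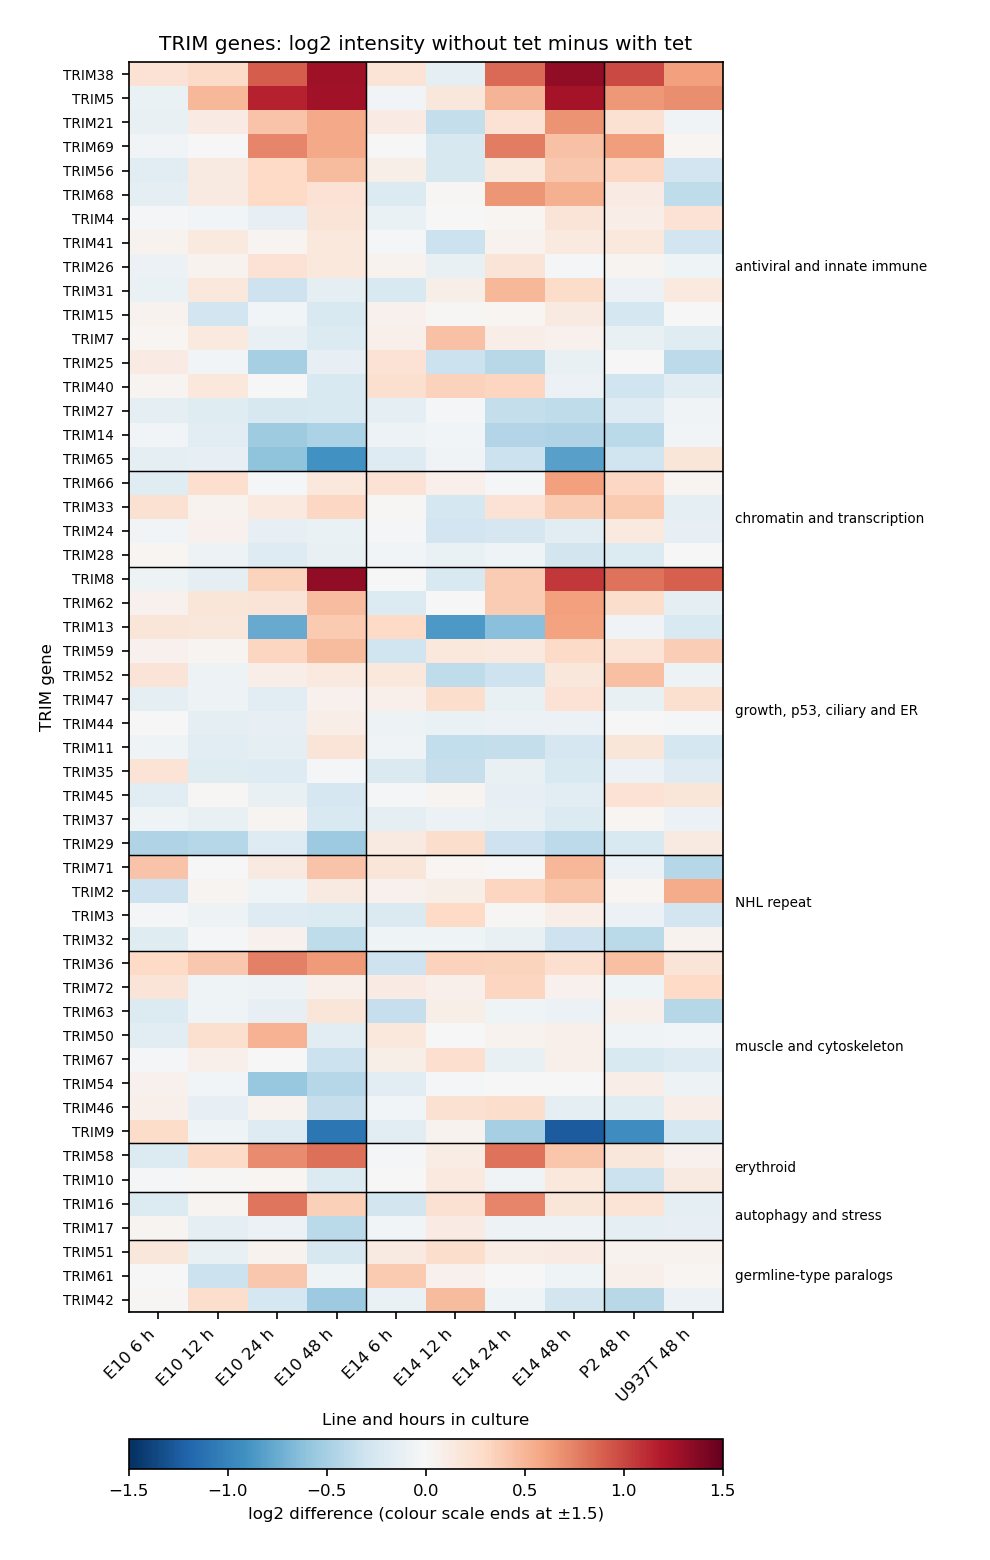
Log2 intensity without tet minus that with tet (colour, blue lower and red higher) of the 52 tested TRIM genes (rows, grouped by role and ordered by the clone response at 48 h) in each line and time point (columns). The columns at 6 and 12 h are mostly pale, and TRIM38, TRIM5 and TRIM8 are red and TRIM9 is blue at 48 h in all 4 lines.

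Among the antiviral and innate immune members, 6 of 17 rose and 3 fell in the EVI1 clones at 48 h (against 16.0% and 14.7% of all genes). In the control lines 2 rose (against 5.41% of all genes). The EVI1-specific response held 0 calls among them (against 2.43% of all genes higher and 3.03% lower). It had 6 members at an unadjusted limma p below 0.05, TRIM5, TRIM21, TRIM38, TRIM56 and TRIM68 higher and TRIM65 lower.

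TRIM5 encodes the restriction factor TRIM5alpha, which binds incoming retroviral capsids, and its promoter window is shown above. At 48 h its log2 intensity was 6.38 with and 7.64 without tet in E10, 6.39 and 7.64 in E14, 6.30 and 6.95 in P2, and 6.44 and 7.13 in U937T. Every culture without tet lay above every culture with tet, and both EVI1 clones lay above both control lines once tet was withdrawn. The clone response was 1.25 (SE 0.14, limma adjusted p = 7.9e-06), or 2.39-fold, and the control response 0.67 (SE 0.14, adjusted p = 0.00719). Their difference of 0.58 (SE 0.20) had a limma adjusted p of 0.116. Without P2 or U937T the control call was lost at a similar size (0.70 and 0.65, limma adjusted p = 0.084 and 0.0887). At 12 and 24 h the changes were 0.50 and 1.15 in E10 and 0.16 and 0.51 in E14, so that E10 was ahead of E14 until 48 h. At 24 h the mean was 0.83 (limma adjusted p = 0.000799), and 0.51 without E10. The other probe set of TRIM5 changed by 0.42 and 0.28 in E10 and E14 at 48 h, and by 0.29 and -0.19 in P2 and U937T.

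TRIM38, which restrains signalling from Toll-like and RIG-I-like receptors, had a similar course. At 48 h its log2 intensity was 8.82 with and 10.09 without tet in E10, 8.86 and 10.18 in E14, 8.76 and 9.75 in P2, and 9.01 and 9.62 in U937T. Again no culture without tet overlapped the cultures with tet. In the clones the change was 1.30 (SE 0.14, limma adjusted p = 8.35e-06) and the control response 0.80 (SE 0.14, adjusted p = 0.00305), and their difference was 0.49 (SE 0.20, adjusted p = 0.212). At 24 h TRIM38 had risen by 0.91 in E10 and 0.84 in E14. All 4 probe sets of TRIM38 were higher without tet in both clones at 48 h, by 0.82 to 1.32, and their changes in the control lines were -0.13 to 0.99. The control response was 0.31 (limma adjusted p = 0.623) with the probe set of largest spread and 0.61 (adjusted p = 0.114) without P2.

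TRIM21, a cytosolic antibody receptor and the Ro52 autoantigen, rose in the clones. At 48 h it was 8.20 with and 8.77 without tet in E10, 8.03 and 8.71 in E14, 8.05 and 8.28 in P2, and 8.19 and 8.14 in U937T. The 2 clone cultures without tet lay above all 6 other cultures of that time point. Limma gave a clone response of 0.62 (SE 0.13, adjusted p = 0.00232), while the EVI1-specific difference of 0.53 (SE 0.19) had a limma adjusted p of 0.136.

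TRIM69, a microtubule-associated inhibitor of vesicular stomatitis virus, had its larger change at 24 h. In E10 and E14 this was -0.01 and -0.24 at 12 h, 0.73 and 0.77 at 24 h, and 0.57 and 0.44 at 48 h. In the control lines at 48 h it was 0.63 in P2, above both clones at that time, and 0.03 in U937T. Limma gave 0.75 (SE 0.13, adjusted p = 0.000968) for the clones at 24 h and 0.51 (SE 0.13, adjusted p = 0.00746) at 48 h. Its other probe sets were also higher in both clones at 24 h (0.12 and 0.28, and 0.25 and 0.41 in E10 and E14), but at 48 h one changed by -0.29 and -0.33 and the other by -0.04 and 0.32.

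TRIM56, which takes part in antiviral signalling, was higher without tet at 48 h by 0.48 in E10 and 0.40 in E14 (limma mean 0.44, SE 0.13, adjusted p = 0.0217, and 0.0538 without the block), and with its second probe set by 0.59 and 0.58. The control lines went apart, with 0.31 in P2 and -0.28 in U937T. TRIM68, a ligase of a cofactor of the androgen receptor, rose by 0.48 at 24 h and 0.37 at 48 h (limma adjusted p = 0.0246 and 0.0488), but the 48 h value was 0.22 (adjusted p = 0.653) without E14 and 0.53 (adjusted p = 0.201) without E10.

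TRIM65, which ubiquitylates the RNA sensor MDA5, showed the largest fall of this group. At 48 h its log2 intensity was 7.47 with and 6.56 without tet in E10, 7.74 and 6.93 in E14, 7.57 and 7.27 in P2, and 7.25 and 7.43 in U937T. The clone cultures without tet were the lowest 2 of the 8. In the clones the change was -0.86 (SE 0.21, limma adjusted p = 0.00531) and the EVI1-specific difference -0.80 (SE 0.29, adjusted p = 0.151). The values come from a probe set (x_at) whose probes may match other sequences, and the second, dimmer probe set of TRIM65 had changes of -0.17 and 0.41 in E10 and E14.

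TRIM14, a RING-less adaptor of the mitochondrial antiviral protein MAVS, fell, and its promoter window is shown above. Its change was -0.53 and -0.44 in E10 and E14 at 24 h, -0.48 and -0.45 at 48 h, -0.41 in P2 and -0.04 in U937T. The clone response at 48 h was -0.47 (SE 0.12, limma adjusted p = 0.00929), and the control response was not called. All 5 probe sets of TRIM14 were lower without tet in both clones at 24 and 48 h.

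TRIM25, which ubiquitylates RIG-I, was lower at 24 h, by 0.50 in E10 and 0.42 in E14 (limma mean -0.46, SE 0.11, adjusted p = 0.00762), and by 0.12 and 0.11 at 48 h. Its second, dimmer probe set changed by -0.07 and 0.19 at 24 h, for a mean of 0.06, so the direction rests on the brighter one. TRIM27, a nuclear and endosomal ligase, was lower by 0.30 at 24 h and 0.31 at 48 h (limma adjusted p = 0.0493 and 0.0275), and its 3 probe sets had mean changes of -0.48 to -0.31 at 48 h. The calls of TRIM27 were lost with the probe set of largest spread (limma adjusted p = 0.46 and 0.243) and without either clone, and that at 24 h also under other settings, with median centring for example (adjusted p = 0.0526).

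TRIM4, which acts on RIG-I, was not called with its brightest probe set (0.20 in E10 and 0.19 in E14 at 48 h), but a dimmer probe set went the other way. Its change was -0.60 and -0.72 in E10 and E14, against 0.28 and 0.30 in P2 and U937T. With this probe set, which has the largest spread, the EVI1-specific difference was -0.95 (SE 0.17, limma adjusted p = 0.007), whereas it was not called with the brightest one. Which of the transcripts of TRIM4 each probe set detects was not tested.

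**Figure D2:**
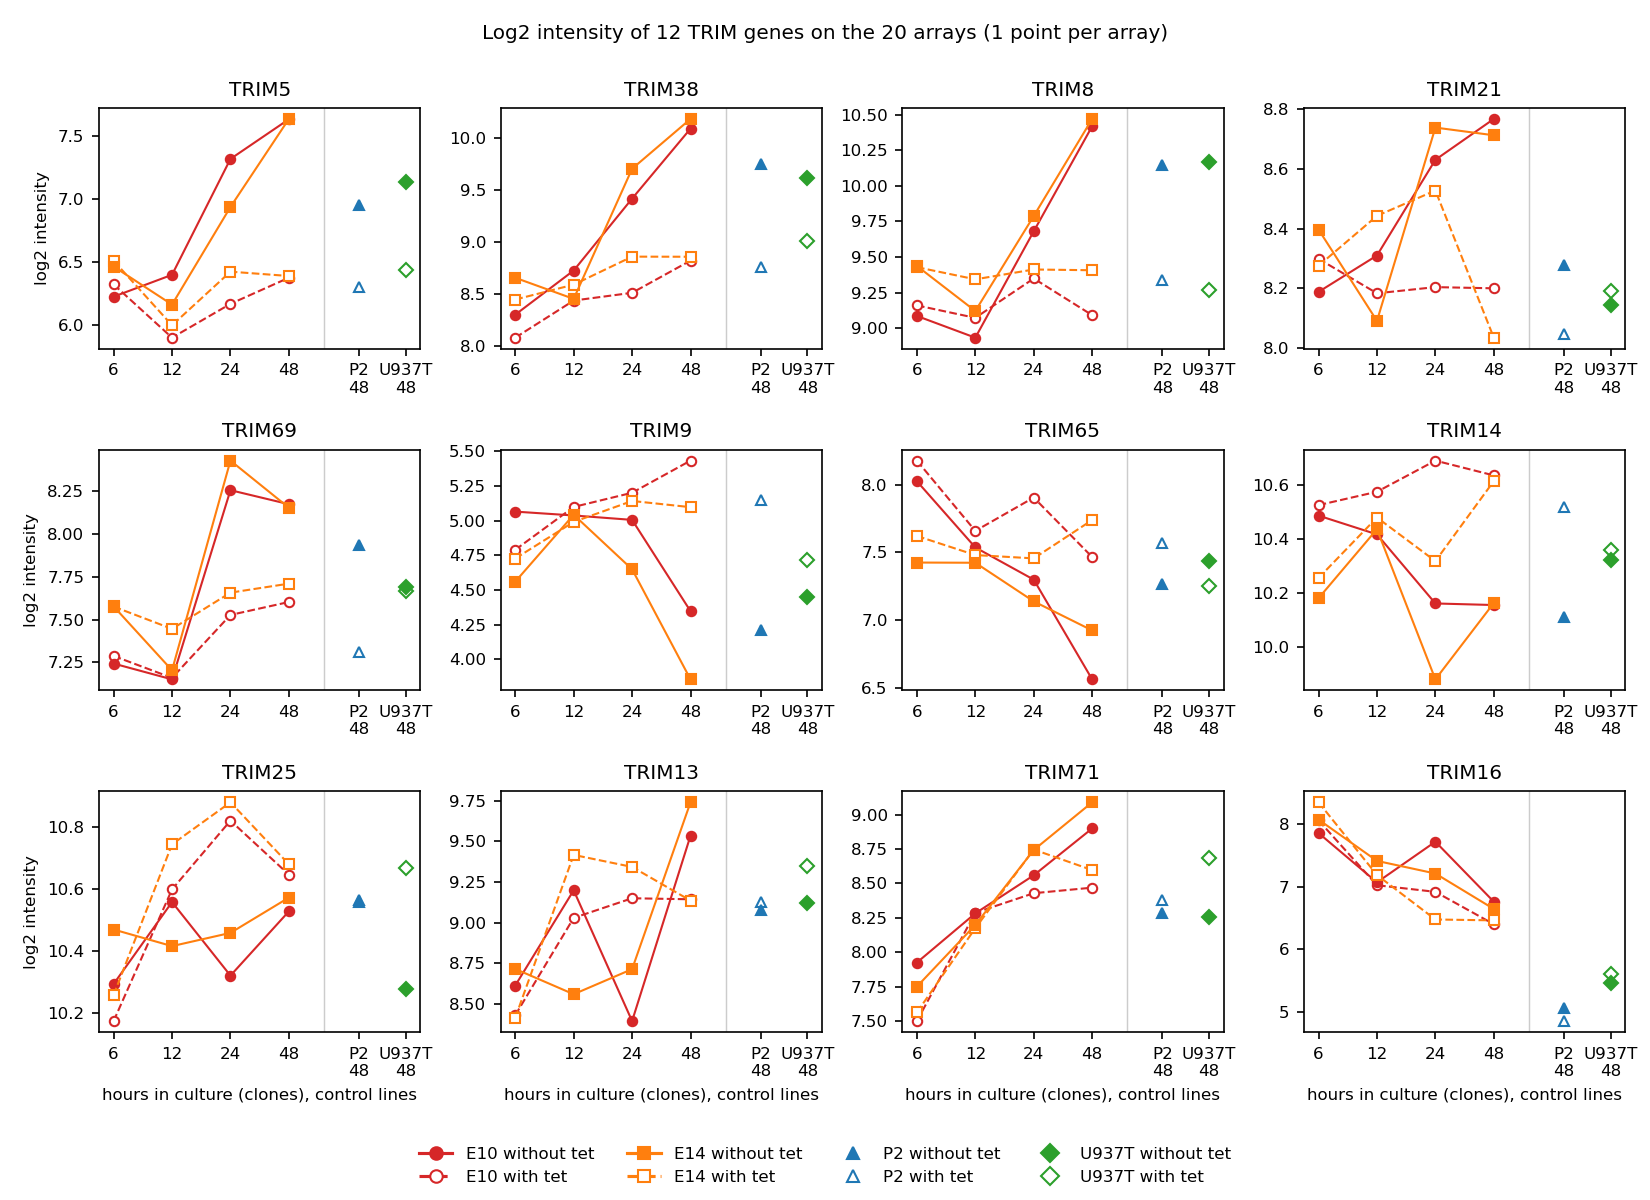
Log2 intensity of 12 TRIM genes on each of the 20 arrays, against the hours in culture for E10 (circles) and E14 (squares) and at 48 h for P2 (triangles) and U937T (diamonds), with open symbols for cultures with tet and filled ones for cultures without. Each panel has its own scale, and at 48 h the filled symbols of TRIM5, TRIM38 and TRIM8 lie above the open ones in every line.

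The members outside innate immunity included the strongest response by its standard error. TRIM8, a ligase with roles in p53, NF-kB and JAK-STAT signalling, had log2 intensities at 48 h of 9.09 with and 10.42 without tet in E10, 9.41 and 10.47 in E14, 9.34 and 10.15 in P2, and 9.27 and 10.17 in U937T. All 4 cultures without tet lay above all 4 with tet, and the clones lay above the control lines. In the clones the change was 1.20 (SE 0.10, limma adjusted p = 4.69e-07) and the control response 0.85 (SE 0.10, adjusted p = 0.000118), with a difference of 0.34 (SE 0.14, adjusted p = 0.203). At 24 h it had risen by 0.35 (SE 0.10, limma adjusted p = 0.0229, and 0.109 without the block), and was thus 0.84 (SE 0.14, adjusted p = 0.00441) higher at 48 h than at 24 h. Of its 5 probe sets, 3 were 0.63 to 1.69 higher without tet in the clones at 48 h, another 0.26 and 0.10, and the dimmest changed by -0.27 and 0.02.

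TRIM13, a ligase anchored in the endoplasmic reticulum whose gene lies in a region often deleted in leukemia, changed its direction with time and was chosen after its values were seen. Its change was -0.76 in E10 and -0.63 in E14 at 24 h, and 0.39 and 0.61 at 48 h. Both clones were thus lower without tet at 24 h and higher at 48 h, while the 12 h values differed between them (0.17 in E10 and -0.86 in E14). The 48 h values were -0.05 in P2 and -0.23 in U937T. The difference between 48 and 24 h was 1.19 (SE 0.26, limma adjusted p = 0.0204), and the changes themselves were -0.69 (SE 0.18, adjusted p = 0.016) at 24 h and 0.50 (SE 0.18, adjusted p = 0.0508) at 48 h. A pair of other probe sets were lower in both clones at 24 h (-0.35 and -0.49, and -0.47 and -0.68). At 48 h the changes of this pair in E10 and E14 were 0.05 and 0.00, and 0.38 and 0.20. The probe set of largest spread changed by 0.29 and -0.00 at 24 h, a mean of 0.14. Its difference between 48 and 24 h was 0.30 (limma adjusted p = 0.776). Without E10 or E14 the difference of the brightest was 1.24 or 1.15 (limma adjusted p = 0.298 and 0.366). In this comparison of 48 with 24 h, which was added after seeing the data, TRIM8 and TRIM13 were the 2 members called higher (3.85%, against 2.07% of all genes), and 0 were called lower (against 1.63% of all genes). At an unadjusted p below 0.05, 4 members were higher and 2 lower.

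Of the other members with roles in growth, TRIM62 (DEAR1), a regulator of epithelial polarity, was higher without tet at 48 h by 0.46 and 0.61 in E10 and E14 (limma mean 0.54, SE 0.11, adjusted p = 0.00187), with 0.26 in P2 and -0.13 in U937T. TRIM59, a membrane-bound member, rose by 0.38 in the clones (limma adjusted p = 0.0232) and changed by 0.28 in the control lines, which was not called. TRIM29, which lacks a RING finger and is used in squamous epithelium, fell by 0.47 in the clones (limma adjusted p = 0.0488), and its adjusted p was 0.345 without E10 and 0.156 without E14. TRIM45, chosen after its values were seen, was not called in any of these comparisons, with -0.21 in the clones and 0.20 in the control lines at 48 h and a difference of -0.40 (SE 0.13, limma adjusted p = 0.0914). In all, 3 of the 12 members of this role rose and 1 fell in the clones at 48 h, against 16.0% and 14.7% of all genes.

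TRIM71 (LIN41), an NHL repeat protein of stem and germ cells that represses messenger RNAs, was the 1 member called in the EVI1-specific response. At 48 h its log2 intensity was 8.47 with and 8.90 without tet in E10, 8.60 and 9.09 in E14, 8.38 and 8.29 in P2, and 8.68 and 8.25 in U937T. The level without tet was higher in the clones and lower in the control lines than with tet, and the 2 clone cultures without tet lay above the 6 other cultures. In the clones the change was 0.46 (SE 0.13, limma adjusted p = 0.0114), the control response -0.26 (SE 0.13, adjusted p = 0.232), and their difference 0.72 (SE 0.18, adjusted p = 0.0288). This difference was 0.55 (limma adjusted p = 0.224) without U937T, and 0.75 and 0.69 (adjusted p = 0.378 and 0.494) without E10 or E14. TRIM71 was read by 1 probe set. With the probe sets of largest spread for the other genes, its difference was the same but had a limma adjusted p of 0.0566. Its level also rose with time in culture in the presence of tet, as given below. The 3′ to 5′ difference at 48 h was 1.06 with and 0.74 without tet in U937T and 0.84 and 0.99 in P2. In E10 it was 0.66 and 0.68, and in E14 0.74 and 0.84. Its part in the values of TRIM71 was not tested. The other NHL repeat members, TRIM2, TRIM3 and TRIM32, were not called in the clones or the control lines.

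TRIM9, a brain-enriched member with a role in axon growth, showed the largest fall of all members. At 48 h its log2 intensity was 5.43 with and 4.35 without tet in E10, 5.10 and 3.86 in E14, 5.15 and 4.21 in P2, and 4.72 and 4.45 in U937T. All 4 cultures with tet lay above all 4 without. The clone response was -1.16 (SE 0.16, limma adjusted p = 5.15e-05) and the control response -0.60 (SE 0.16, adjusted p = 0.0262), and the latter was -0.27 (adjusted p = 0.492) without P2 and had an adjusted p of 0.0657 without the line as a block. Their difference was -0.56 (SE 0.22, limma adjusted p = 0.19). With its second probe set the changes at 48 h were -0.43 in E10, -0.22 in E14, -0.55 in P2 and -0.72 in U937T. With that probe set both control lines thus fell more than both clones.

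TRIM36, a microtubule-binding member, had changes of 0.75 and 0.34 in E10 and E14 at 24 h and of 0.64 and 0.25 at 48 h (means 0.54 and 0.45, limma adjusted p = 0.0178 and 0.0303), and a mean of 0.32 in the control lines. Without E10 the clone values were 0.34 and 0.25 (limma adjusted p = 0.556 and 0.59), without E14 the calls were lost too, and 0 of its 3 other probe sets were higher in both clones at 48 h. TRIM58, which triggers the loss of dynein in maturing erythroblasts, had changes of 0.71 and 0.81 in E10 and E14 at 24 h and of 0.83 and 0.42 at 48 h (both rises, limma adjusted p = 0.00899 and 0.0165), and of 0.17 and 0.06 in P2 and U937T. TRIM42, a testis-type paralog with log2 intensities of 3.90 to 4.77, fell by 0.41 (limma adjusted p = 0.0177) in the clones at 48 h. Its change was -0.41 in P2 and -0.09 in U937T. The clone call was lost with only the 48 h arrays (limma adjusted p = 0.0605) and without either clone. Of the 5 members with the lowest mean intensity, TRIM6 and TRIM55 were not tested, and the changes of TRIM40, TRIM51 and TRIM63 in the clones at 48 h (-0.16, -0.06 and 0.05) were not called.

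TRIM16, a RING-less member that takes part in the clearance of damaged lysosomes and was also chosen after its values were seen, rose at 24 h. Its change in E10 and E14 was 0.05 and 0.23 at 12 h, 0.80 and 0.73 at 24 h, and 0.36 and 0.18 at 48 h, while it was 0.20 in P2 and -0.14 in U937T. Limma gave 0.77 (SE 0.19, adjusted p = 0.0110) at 24 h and 0.27 (SE 0.19, adjusted p = 0.329) at 48 h. In the presence of tet at 48 h its level was 6.40 in E10 and 6.46 in E14, against 4.85 in P2 and 5.61 in U937T. This difference of 1.20 (SE 0.23) had a limma adjusted p of 0.114, and 0 members were called between clones and control lines with tet (3 at an unadjusted p below 0.05, TRIM16, TRIM4 and TRIM7).

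The chromatin cofactors were not called in any comparison of cultures without and with tet. TRIM28 (KAP1), the corepressor of KRAB zinc finger proteins, had changes of -0.11 and -0.28 in E10 and E14 at 48 h, and its log2 intensities were 12.21 to 12.76 over all arrays. The limma values of the clones at 48 h were -0.19 (SE 0.10, adjusted p = 0.182) for TRIM28, -0.13 (SE 0.11, adjusted p = 0.395) for TRIM24, 0.35 (SE 0.15, adjusted p = 0.106) for TRIM33, which restrains TGF-beta signalling, and 0.39 (SE 0.16, adjusted p = 0.0879) for TRIM66. A missed threshold does not show that these genes did not change. Of 17 tested partners of KAP1, 3 rose in the clones at 48 h (ATRX 0.70, HDAC1 0.52 and ZNF274 0.35) and 1 fell (MORC2 -0.39), against 16.0% and 14.7% of all genes. In the EVI1-specific response 0 partners were called (against 2.43% of all genes higher and 3.03% lower).

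**Figure D3:**
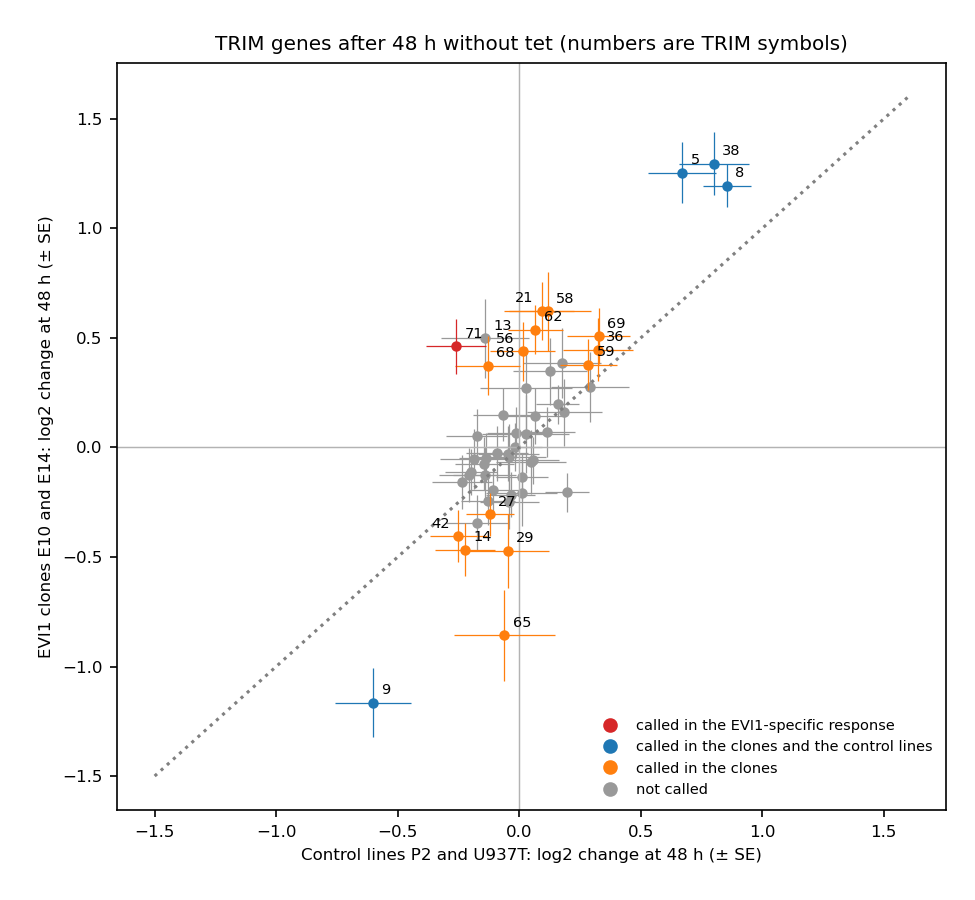
Log2 change after 48 h without tet in the EVI1 clones (vertical axis, mean of E10 and E14) against that in the control lines (horizontal axis, mean of P2 and U937T) for the 52 tested TRIM genes, with bars of 1 standard error and numbers for the TRIM symbols. The dotted line marks equal changes, TRIM5, TRIM8 and TRIM38 lie above it at the upper right, and TRIM71 (red) has opposite signs on both axes.

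Several members differed between 6 and 48 h in culture without induction of EVI1. In this comparison, added after seeing the data, E10 and E14 cultures with tet at 48 h were compared with those at 6 h, and limma called 4 members higher (7.69%, against 3.1% of all genes) and 5 lower (9.62%, against 4.07% of all genes). The log2 intensity of TRIM16 with tet was 8.06 at 6 h and 6.40 at 48 h in E10 and 8.35 and 6.46 in E14, and that without tet was 7.86 and 6.76, and 8.07 and 6.64. For TRIM71 with tet it was 7.50 and 8.47 in E10, and 7.56 and 8.60 in E14. The 6 and 48 h cultures did not overlap for either gene, and limma gave -1.77 (SE 0.19, adjusted p = 2.68e-04) for TRIM16 and 1.00 (SE 0.13, adjusted p = 6.69e-04) for TRIM71. TRIM13 (0.72), TRIM38 (0.58) and TRIM25 (0.45) rose, and TRIM59 (-0.41), TRIM62 (-0.41), TRIM27 (-0.41) and TRIM37 (-0.38), a ligase of peroxisomes and centrosomes chosen after its values were seen, fell. Without the block, the calls of TRIM59 and TRIM62 were lost (limma adjusted p = 0.0524 and 0.109). The call of TRIM25 and that of TRIM37 turned direction with the probe set of largest spread (-0.20 and 0.32, both not called). The 3′ to 5′ difference of these arrays also moved, from 0.19 to 0.66 in E10 and from 0.45 to 0.74 in E14, and its part in these changes was not tested. Leaving out E10 or E14 left 1 call, that of TRIM16.

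Of the 36 members with several single-symbol probe sets, those called in the clones at 48 h differed in how far their probe sets went together. At 48 h all probe sets past the filter of TRIM5, TRIM9, TRIM14, TRIM27, TRIM38, TRIM56 and TRIM62 had changes of 1 sign in both clones, whereas those of TRIM8, TRIM29, TRIM36, TRIM42, TRIM58, TRIM65 and TRIM69 did not. TRIM21, TRIM59, TRIM68 and TRIM71 were read by 1 probe set each.

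**Figure D4:**
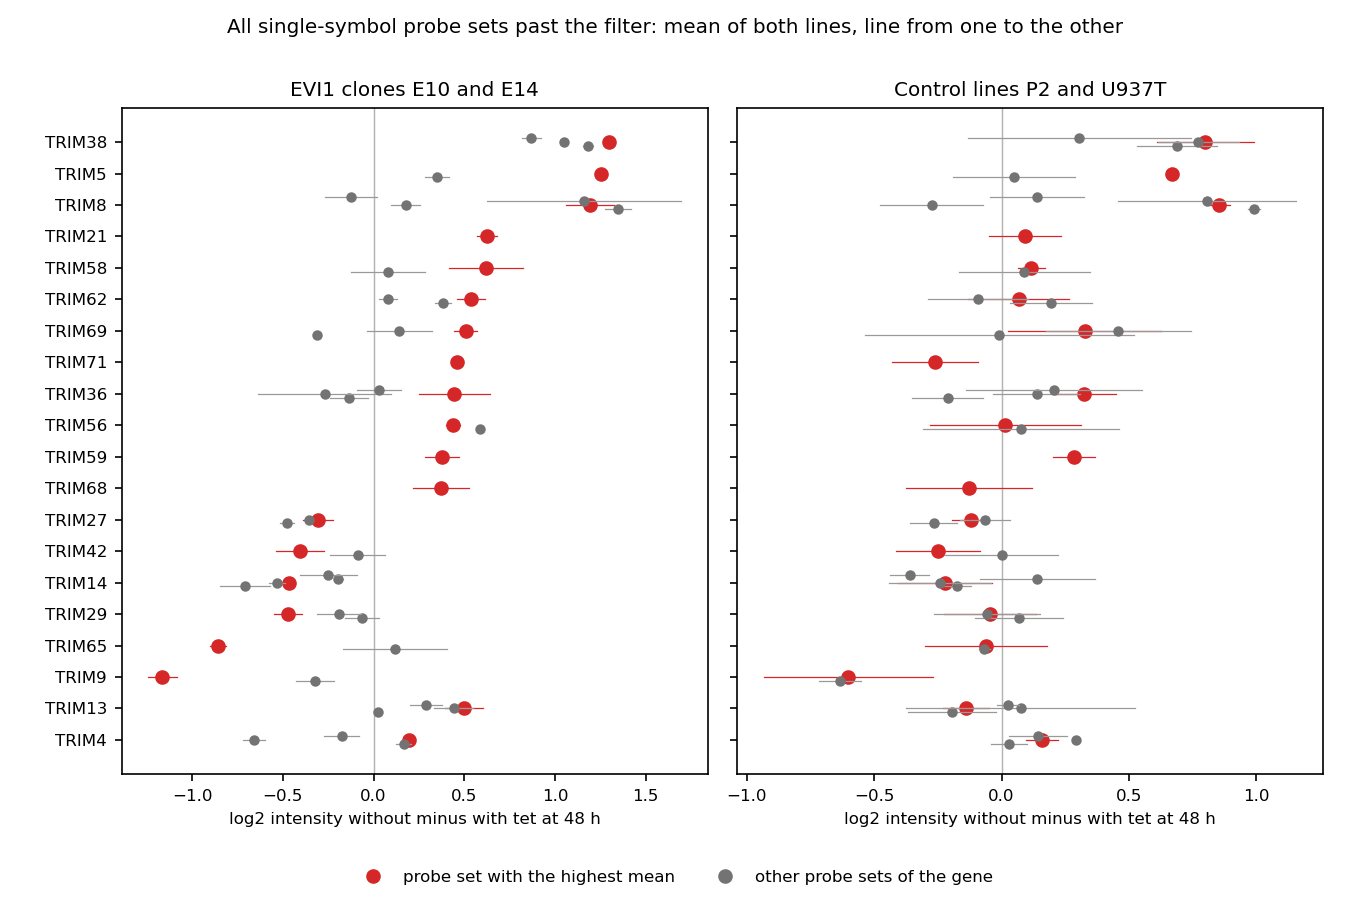
Log2 change after 48 h without tet for every single-symbol probe set past the filter of the TRIM genes called in the EVI1 clones at 48 h and of TRIM13 and TRIM4, in the EVI1 clones (left) and the control lines (right). A dot is the mean of both lines and the bar runs from one line to the other, with the probe set of highest mean in red. The grey dot of TRIM4 at -0.66 lies opposite to its red dot.

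Genes around the TRIM family were read from lists of the pathway. In the list of nucleic acid sensing, 18 of 22 genes were tested. Of these, 7 rose and 1 fell in the clones at 48 h (against 16.0% and 14.7% of all genes), with a median of 0.17. IRF7, a master regulator of type I interferon production, rose by 2.40 and IFIH1, which encodes MDA5, by 1.07. In the EVI1-specific response IRF7 and IFIH1 were the 2 genes called, with 1.59 and 0.82 (limma adjusted p = 0.000489 and 0.045). Of all genes, 2.43% were called higher and 3.03% lower there. TRAF3, an adaptor of this pathway, fell by 0.94 in the clones and by 0.46 in the control lines (limma adjusted p = 5.9e-06 and 0.01). Of 32 tested genes of the type I interferon signature, 24 rose and 1 (MX2) fell in the clones at 48 h (against 16.0% and 14.7% of all genes). In the control lines 9 rose and 1 fell (against 5.41% and 5.3% of all genes). The median of their EVI1-specific response was 0.70, and 17 were higher in it (against 2.43% of all genes). Among these were IFIT1 (2.26), RSAD2 (1.75), IFIT2 (1.61) and IFI6 (1.45). In the same comparison the median of the 17 antiviral TRIM members was 0.09 and that of all genes -0.00, and no test compared the lists.

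Of 16 listed ubiquitin-activating and conjugating enzymes, only 10 were tested. Among these, 0 rose and 1 fell in the clones at 48 h (against 16.0% and 14.7% of all genes). This was UBE2E2, which fell by 0.34 (limma adjusted p = 0.00955). Of 12 TRIM-type genes without a TRIM symbol, BSPRY (0.64) and MID1 (0.73), a microtubule-associated ligase, rose and 0 fell (against 16.0% and 14.7% of all genes). In the control lines 0 of the 12 were called (against 5.41% of all genes higher and 5.3% lower). The EVI1-specific response also held 0 of them (against 2.43% and 3.03%).

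**Figure D5:**
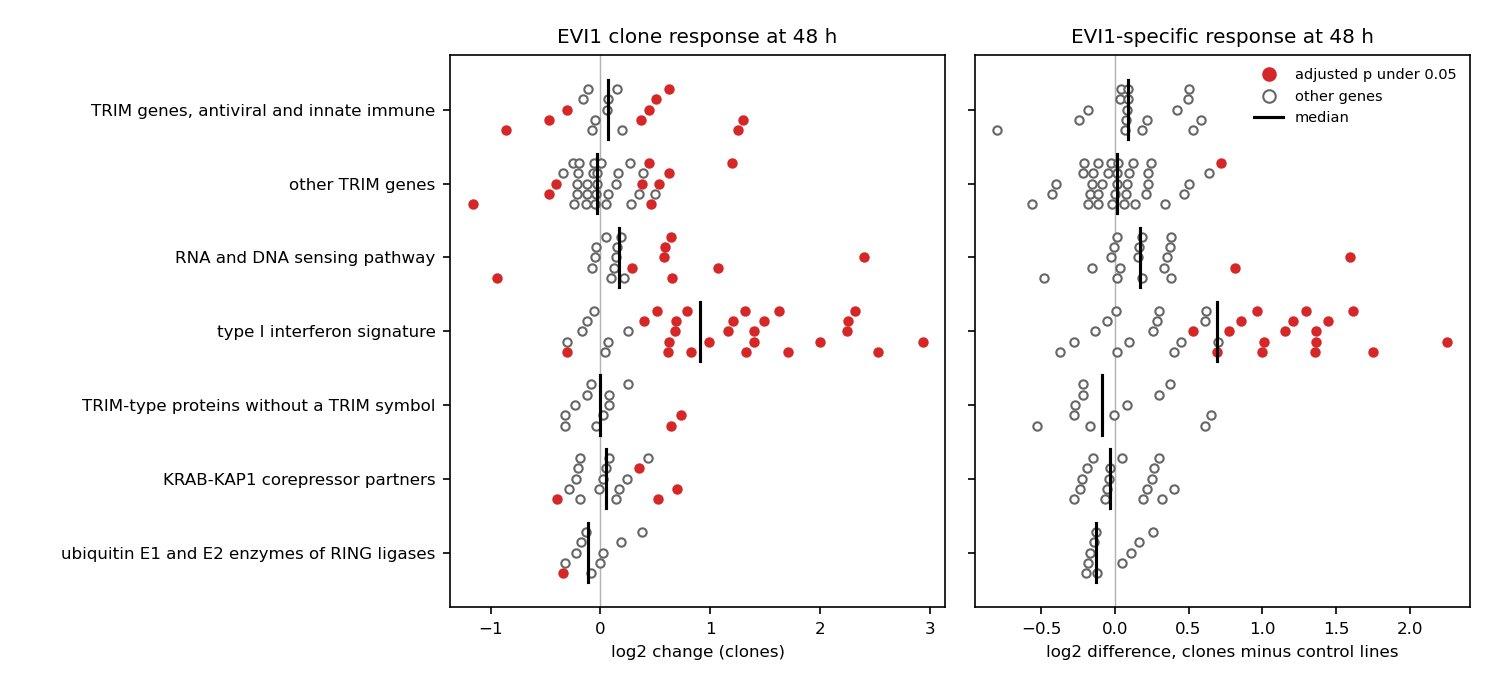
Log2 change of the genes of each list (rows) in the EVI1 clones at 48 h (left) and their EVI1-specific difference (right), with 1 point per gene, genes with a limma adjusted p below 0.05 in red and the median as a bar. The median of the interferon signature is 0.91 on the left and 0.70 on the right, and that of the antiviral TRIM genes 0.07 and 0.09.

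Some markers of cell type moved with the same cultures. Of 9 myeloid markers, 4 rose at 48 h both in the clones (against 16.0% of all genes) and in the control lines (against 5.41%). These were PTPRC, ITGB2, FCER1G and TYROBP, the last by 3.93 and 2.27. The log2 summed intensity of the 9 went from 13.32-13.62 with to 14.31-14.34 without tet in the clones. In the control lines it went from 13.23-13.34 to 13.75-13.82. Of 5 lymphoid markers, CD3E (1.17) and CD79A (0.43) rose in the clones, with summed values of 8.49-8.66 with and 8.94-9.05 without tet, against 8.64-8.90 and 8.79-8.84 in the control lines. Of 3 erythroid markers, KLF1 fell by 1.39 in the clones and 0.59 in the control lines (against 14.7% and 5.3% of all genes). The 3 summed to 7.37-7.62 with and 6.72-6.92 without tet in the clones and to 7.40-7.56 and 7.14-7.17 in the control lines. The 6 epithelial and fibroblast markers summed to 6.76-7.03 with and 6.74-6.82 without tet in the clones and to 6.95-6.97 and 6.93-6.95 in the control lines. The part of these changes in those of the TRIM genes was not tested.

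The fold criteria of the study require both clones to change at least 2-fold at both late time points. They must also exceed the control lines by a factor. Of the 52 members with a probe set past the filter, 0 passed with any such probe set. The share of all genes that pass was not computed, so this count is not a result about the family. At 1.5-fold and without the condition on the control lines, a setting added after seeing the data, 1 member passed, TRIM38.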

How the data were processed

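RNA was hybridized to 20 HG-U133 Plus 2.0 arrays. The deposited values are log2 intensities, for which the authors used Robust Multi-array Analysis (background correction, quantile normalization and median polish). They were used as deposited, and array medians were 5.25 to 5.35. Of 54675 probe sets, 41097 carry 1 symbol in the platform annotation. As in the methods of the study, probe sets needed a mean of 3 or more over the cultures with and without tet. This had to hold in each of E10 and E14 at 24 h and at 48 h, and in each of P2 and U937T at 48 h. The probe set with the highest mean represented a gene (17860 genes). The number of arrays limits the precision.

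limma 3.58.1 (R 4.3.3) was fitted on all arrays with 10 groups and the line as a fixed block (8 residual and 5.74 prior degrees of freedom), and p-values were adjusted by Benjamini-Hochberg. The fit was tested on simulated data. The line pairs cultures by design, since each line was split into cultures with and without tet. Over 28 pairs of groups the E10 minus E14 differences had a median correlation of 0.11 (-0.22 to 0.52), and those of P2 minus U937T one of -0.21. Clones minus control lines with tet was fitted without the block.

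In the fold criteria, the factor by which the clones must exceed a control line was computed from the fold of that line. Alternatives were no filter or a minimum of 5, the probe set of largest spread, median centring, an intensity trend with robust variance, no block, only the 48 h arrays, a 2-fold minimum, and leaving out each line. Members, roles and lists were chosen with earlier results of these data known. Named members are those called in the control or EVI1-specific response or at 6 or 12 h, up to 8 further clone calls in each direction, the brightest and dimmest 5 (TRIM14, TRIM25, TRIM27, TRIM28 and TRIM44, and TRIM6, TRIM40, TRIM51, TRIM55 and TRIM63), those fixed by role, those with an opposite probe set, and up to 4 called genes of each list, and others are marked as chosen after their values were seen. Promoter sequences are from RefSeq (GRCh38.p14). Probe sets shared between symbols were not used.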

Additional observations from a re-analysis of the deposited data

Results flagged for a closer look

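TRIM71 differed between the EVI1 clones and the control lines at 48 h. The difference of the log2 changes was 0.72 (SE 0.18, limma adjusted p = 0.0288), with 0.43 in E10 and 0.49 in E14 against -0.09 in P2 and -0.43 in U937T.

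TRIM13 differed between 24 and 48 h within the EVI1 clones. The difference of its log2 changes was 1.19 (SE 0.26, limma adjusted p = 0.0204). With its brightest probe set the direction turned in both clones between these times, though the change at 48 h itself was not called. The second brightest probe set changed by 0.05 and 0.00 in E10 and E14 at 48 h.

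TRIM8 likewise responded more at 48 h than at 24 h in the EVI1 clones, by 0.84 (SE 0.14, limma adjusted p = 0.00441), with a rise in both clones at both times.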

How the results depend on the processing

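Counts are of TRIM members called by limma. Without the replicate block, 19 were called in the clones at 48 h (18 with it), 11 at 24 h (12), 3 in the control lines (4) and 1 in the EVI1-specific response (1). The EVI1-specific count of 1 became 0 with only the 48 h arrays, without E14 at its 12 and 24 h time points or at 2-fold or more, and 0 to 1 on leaving out a line (1 without P2). With the probe set of largest spread it stayed at 1, but the member was TRIM4 and not TRIM71. TRIM71 has 1 probe set, so its value of 0.72 was the same there, with a limma adjusted p of 0.0566. In the clones at 48 h, 4 changed at least 2-fold, and leaving out a line gave 5 to 19. In the control lines, 2 were called with the probe set of largest spread, 0 at 2-fold or more, and 1 to 4 on leaving out a line (1 without P2). In the clones at 24 h, 4 were called without those E14 cultures, 0 at 2-fold or more, and 0 to 11 on leaving out a line (0 without E10). Between 48 and 24 h the count of 2 became 1 with the probe set of largest spread or without those E14 cultures, and 0 to 3 on leaving out a line. Between 48 and 6 h with tet the count of 9 became 4 without those E14 cultures, and 1 to 10 on leaving out a line. Between clones and control lines with tet, 0 to 1 was called on leaving out a line. The fold criteria passed 1 at 1.5-fold without the control condition. With the probe set of largest spread, the direction turned for TRIM4 (EVI1-specific -0.95), TRIM13 and TRIM25 at 24 h (0.14 and 0.0615), and TRIM25 and TRIM37 over time with tet (-0.20 and 0.32). Of 881 recomputed values of single members, 746 kept their direction and side of the threshold, 130 lost their call (72 of them without E10 or E14, where 1 residual degree of freedom is left) and 5 turned. The 881 values recompute 76 values of the main fit, of which 46 were called, so the others had no call to lose. Causes were not tested.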
